A study of Mus musculus with 18 samples.

Results

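The 41 genes described here carry a cell through G2 and mitosis. They comprise the mitotic cyclins and *Cdk1*, the mitotic kinases, the spindle checkpoint, the kinetochore, the spindle with its kinesin motors, the machinery of cytokinesis and anaphase, and the proliferation markers *Mki67* and *Top2a*. They were taken by gene symbol from a fixed list and by no rule on their measured values, but the list was chosen with earlier results of these data known. They make up 41 of the 55453 gene names in the count tables. All 41 passed the filter on low counts and were tested among 20787 genes.

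The 18 RNA-Seq libraries came from laser microdissected (LMD) colonic epithelial cells of female Swiss Webster mice. All mice ate a 2 mg/kg folic acid (FA) chow, were injected with the colon carcinogen azoxymethane (AOM) at 7 weeks of age, and received 4 cycles of 2% dextran sulfate sodium (DSS), an agent that causes colitis, from 9 weeks of age. At 11 weeks of age they were randomized to chow with 0 or 8 mg/kg FA for 16 weeks and were examined at 27 weeks. Each dose gave a group of non-dysplastic epithelium (0ND, n = 4, and 8ND, n = 5) and a group of polypoid dysplasia (0P, n = 4, and 8P, n = 5), abbreviated ND and P. Every group carried AOM and DSS, so no library represents an untreated colon, and a group on the basal diet was not analysed here. The labels do not say which mouse each library came from, so the p-values below measure the spread between these libraries and would be too small if libraries of a group shared a mouse.

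Entry into mitosis is driven by cyclin B bound to Cdk1, and exit follows when the anaphase-promoting complex marks cyclin B and securin for destruction. Between these steps kinesin motors and microtubule-binding proteins build the spindle, kinetochores tie chromosomes to it, and the checkpoint holds anaphase back until all are attached. Most of these genes are transcribed late in the cell cycle, and in the colon dividing cells lie mainly in the lower crypt. Many of their promoters carry CCAAT boxes, which bind NF-Y, together with a cell cycle genes homology region (CHR), which recruits the DREAM and MuvB complexes.

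The total gene count ranged from 3500947 to 17048524 per library, of which the 41 genes took 5803 to 34079 counts, and the lowest count of any of them in any library was 25 (*Cdc20*). Intervals and errors therefore rest mainly on the spread between libraries, although counting noise adds more for the genes with the lowest counts. The library with the fewest counts, 8ND 4, had the highest level within 8ND of 23 of the 41 genes and the lowest of 6. Several libraries stood apart. 0P 2 had the highest level of 35 of the 41 genes among all 18 libraries, 0ND 4 had the lowest level of 24, and 0ND 2 had the highest level within 0ND of 39. 8ND 1 and 8ND 2 lay nearest to the P libraries on the first principal component of all tested genes, at -27.8 and -27.9, as compared to -82.8 to -48.6 for the other ND libraries and 30.5 to 75.6 for the P libraries. The counts of called genes are given with and without these libraries, and the calls of single genes only in part. All 12 epithelium markers had reads in every library, *Epcam* at a level of 423 to 863 (CPM, the count scaled to the library size as corrected by the trimmed mean of M values, TMM), and the summed epithelium markers reached 4216 to 6255 CPM in 0ND, 3481 to 5362 in 0P, 3772 to 6421 in 8ND and 3133 to 4348 in 8P. Markers of other cell types were present too. Of those of smooth muscle, 10 of 10 were lower in P than in ND at both doses, with summed levels of 1272 to 3333 CPM in 0ND, 442 to 878 in 0P, 1081 to 2116 in 8ND and 320.3 to 663 in 8P.

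Promoter windows of RefSeq (mouse build GRCm38.p6, which is mm10) were matched by symbol to 36 of the 41 genes (all but *Aurkb*, *Ccna2*, *Kif20a*, *Spc24* and *Tpx2*), as 38 windows reaching from 250 bases before to 50 bases after a transcription start. The upstream stretches of 4 of the genes followed library by library below are shown because they hold a CCAAT box or a CHR, and those of *Top2a* and *Cdk1* were added after their letters had been seen, because they hold both. Sequences run 5′ to 3′ on the strand of the gene, end before its start and leave out bases that GENCODE M21 annotates as exon. Capitals mark CCAAT or TTTGAA, read on either strand (ATTGG and TTCAAA are the same letters on the other strand). The stretches lie at chr13:100786571-100786636 (minus strand, *Ccnb1*), chr7:122159402-122159434 (plus strand, *Plk1*), chr2:118598061-118598210 (plus strand, *Bub1b*), chr19:37376232-37376381 (plus strand, *Kif11*), chr11:99024190-99024339 (minus strand, *Top2a*) and chr10:69352939-69353062 (minus strand, *Cdk1*).
Ccnb1: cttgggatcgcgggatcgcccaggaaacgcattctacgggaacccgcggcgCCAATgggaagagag
Plk1: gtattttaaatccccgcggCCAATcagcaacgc
Bub1b: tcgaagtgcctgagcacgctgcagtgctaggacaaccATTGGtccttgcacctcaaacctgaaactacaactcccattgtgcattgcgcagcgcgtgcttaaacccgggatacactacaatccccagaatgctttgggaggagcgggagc
Kif11: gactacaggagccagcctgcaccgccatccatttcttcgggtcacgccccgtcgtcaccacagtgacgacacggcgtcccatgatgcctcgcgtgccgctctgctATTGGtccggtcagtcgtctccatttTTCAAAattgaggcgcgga
Top2a: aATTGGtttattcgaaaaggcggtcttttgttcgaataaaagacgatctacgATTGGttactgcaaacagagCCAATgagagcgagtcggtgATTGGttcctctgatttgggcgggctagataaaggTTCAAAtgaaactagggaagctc
Cdk1: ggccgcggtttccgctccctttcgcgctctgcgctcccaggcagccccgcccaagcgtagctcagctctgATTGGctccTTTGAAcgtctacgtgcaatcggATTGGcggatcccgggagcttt

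The letters TTTGAA, the core of the CHR, were found on either strand in 30 of the 38 windows (78.9%), as compared to 17.9% of all 32851 promoter windows of the same length. CCAAT was found in 28 windows (73.7%), as compared to 37.4% of all windows, and at least 2 CCAAT boxes stood in 19 (50%), as compared to 11.7%. TTCCCGC, an E2F-like sequence, was found in 1 window (2.63%), that of *Plk4*, which is near the share of all windows (4.6%). Other forms of the E2F site were not searched, and the G1/S genes were not counted separately. Matches of CCAAT and TTTGAA shared a base only in *Cdca8*, and a pair of CCAAT boxes on opposite strands overlapped in *Ube2c*. Each match is a description of these bases only. Within 50 bases on either side of the start, a window chosen after the positions had been seen, TTTGAA stood in 28 of 38 windows (73.7%), as compared to 4.94% of all windows. By gene, 23 had both TTTGAA and CCAAT, and 5 had neither (*Birc5*, *Melk*, *Nuf2*, *Nusap1* and *Plk4*). In *Plk1* and *Bub1b* the TTTGAA lay after the start and so outside the printed bases, and in *Ccnb1* none was found.

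**Figure D1:**
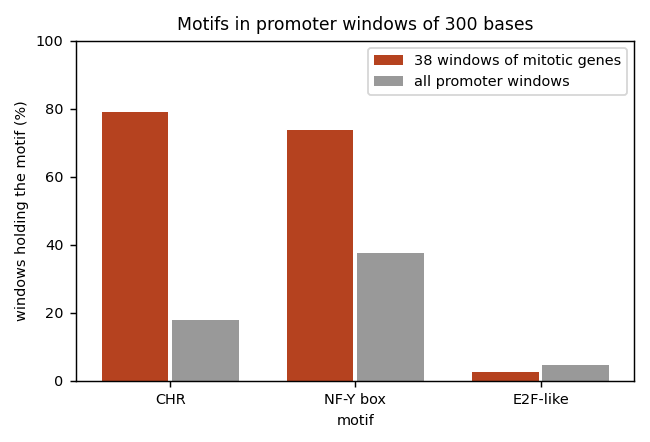
Share of promoter windows of 300 bases (percent, y axis) that hold TTTGAA (CHR), CCAAT (NF-Y box) or TTCCCGC (E2F-like) on either strand, for the 38 windows of the mitotic genes (red) and all 32851 windows (grey). TTTGAA stood in 78.9% against 17.9%, CCAAT in 73.7% against 37.4% and TTCCCGC in 2.63% against 4.6%.

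Per kilobase of exon, *Mki67*, which coats mitotic chromosomes, had the highest mean level over the 18 libraries at 40.6 CPM, followed by *Top2a*, the topoisomerase that untangles sister chromatids, at 21.4. The other 39 genes lay between 1.62 (*Espl1*, the separase that cuts cohesin) and 10.1 (*Ccna2*). *Mki67* and *Top2a* together made up 33.8 to 40.4% of the summed CPM of the 41 genes. The summed level was 1248, 1868, 1338 and 1045 CPM in 0ND 1 to 4, 1231, 1312, 1569.8, 1549 and 1433 in 8ND 1 to 5, 1716, 2623, 1719 and 1792 in 0P 1 to 4, and 2060.3, 1492, 2114, 1999.5 and 1777 in 8P 1 to 5. Both P groups were higher on average (0ND 1375 ± 351, 0P 1962 ± 441, 8ND 1419 ± 147 and 8P 1889 ± 256, SD), but the groups overlapped: 0ND 2 lay above 3 of the 4 0P libraries, and 8P 2 lay below 2 of the 5 8ND libraries. In such bulk samples, more dividing cells and more RNA per dividing cell cannot be told apart. Divided by the summed epithelium markers, the level was 0.167 to 0.318 in 0ND, 0.32 to 0.622 in 0P, 0.226 to 0.411 in 8ND and 0.42 to 0.67 in 8P. P and ND did not overlap at either dose, but only by narrow margins (0.318 against 0.32 and 0.411 against 0.42). The divisor itself differed: 6 of 12 epithelium markers were called lower in 0P than in 0ND and 9 of 12 in 8P than in 8ND, with 1 higher in each. A lower divisor raises the ratio, so it does not measure the mitotic genes alone.

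**Figure D2:**
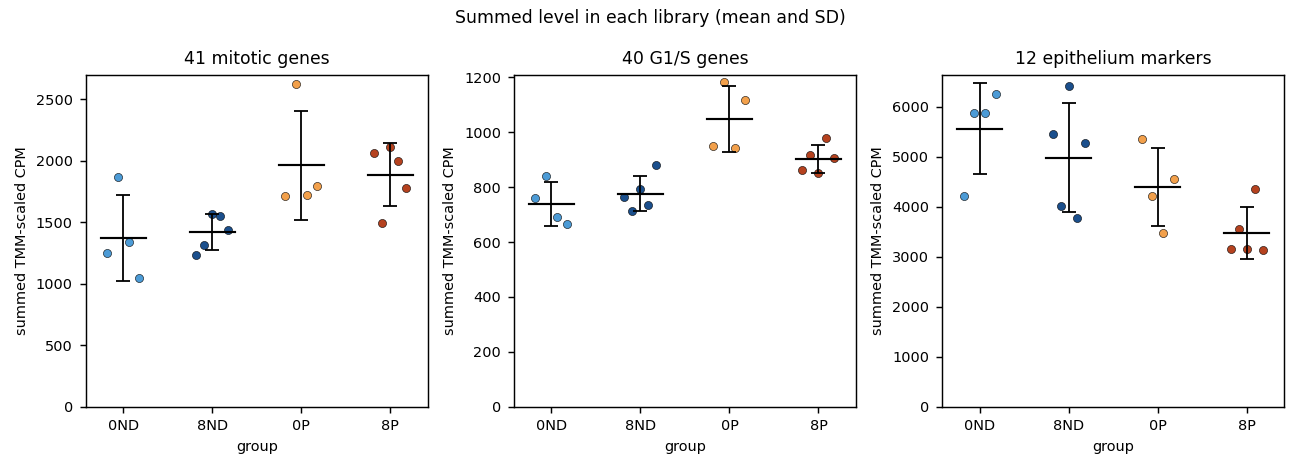
Summed TMM-scaled CPM (y axis, from 0) of the 41 mitotic genes, 40 G1/S genes and 12 epithelium markers in each library (points) by group, with the mean and SD (bars). For the mitotic genes, 0P 2 stands highest at 2623 and 0ND 2 at 1868 lies above the 3 other 0P libraries, while the epithelium markers are lowest in 8P, at 3133 to 4348.

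Comparing dysplasia with non-dysplastic epithelium asks how far these genes differ between lesion and background mucosa at the same FA dose. In the 0 mg FA groups, 26 of the 41 genes were higher in 0P than in 0ND and 0 were lower (edgeR quasi-likelihood test, Benjamini-Hochberg adjusted p under 0.05 over all 20787 genes), as compared to 15.9% of all tested genes called higher and 15.7% called lower. Their median log2 fold change was 0.59, as compared to -0.03 over all genes, and 40 of 41 lay above 0, as compared to 47.6% of all genes. In 11 of them every 0P library lay above every 0ND library, which held for 16.2% of all genes, and in 0 of them every 0P library lay below (16.1%). In the 8 mg FA groups, 15 of 41 were higher in 8P than in 8ND and 0 were lower, as compared to 13.9% of all genes called higher and 14.3% called lower. There the median was 0.38, as compared to 0.00 over all genes, 38 lay above 0 (50.1% of all genes), and 9 did not overlap with 8P higher (8.26% of all genes), while 0 did so with 8P lower (8.94%). The changes were small: only *Kif2c* in 0P vs. 0ND reached 2-fold, at a log2 fold change of 1.07. Its call was lost without 0P 2 (edgeR, adjusted p = 0.0687).

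A group of 12 genes passed the threshold at both doses (*Bub1*, *Bub1b*, *Ccnb1*, *Cdca8*, *Cenpf*, *Ect2*, *Kif15*, *Ndc80*, *Nuf2*, *Prc1*, *Top2a* and *Tpx2*), 14 passed in 0P vs. 0ND alone, 3 in 8P vs. 8ND alone (*Cenpe*, *Kif20b* and *Spc25*) and 12 in neither. Of all tested genes, 15.9% were called higher at 0 mg FA and 13.9% at 8 mg FA. The share called at both doses was not counted, so the 12 cannot be set against it. The difference between the doses was tested for each gene as an interaction and passed for 0 of 41, so no gene is shown to differ between doses. Both counts depended on single libraries. Without 0P 2, 8 genes were called in 0P vs. 0ND (median 0.43), namely *Top2a*, *Bub1b*, *Kif15*, *Prc1*, *Ccnb1*, *Kif20a*, *Birc5* and *Kif4*, as compared to 13.9% of all genes called higher in that fit, and these 8 passed in each of the 18 fits that left out 1 library. The count was also lower without 0ND 1 (15), 0ND 3 (16) or 0ND 4 (13), as compared to 13.7%, 13.6% and 13.1% of all genes called higher in these fits. For 8P vs. 8ND the count was 6 without 8ND 1 or without 8P 4, 7 without 8ND 2, 8P 1 or 8P 3, 9 without 8ND 3 and 4 without 8ND 1 and 8ND 2 together (median 0.30). In these fits the share of all genes called higher was 13.1% (without 8ND 1), 12.2% (without 8P 4), 13.3% (without 8ND 2), 12% (without 8P 1), 12.8% (without 8P 3), 11.4% (without 8ND 3) and 12% (without 8ND 1 and 8ND 2 together). The counts of 6 and 7 of 41 were thus near the share of all genes and that of 4 was below it. In 8P vs. 8ND 6 genes held whichever of the 18 libraries was omitted (*Ect2*, *Kif15*, *Top2a*, *Cenpf*, *Tpx2* and *Prc1*). Only *Kif15*, *Top2a* and *Prc1* held in this way at both doses.

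**Figure D3:**
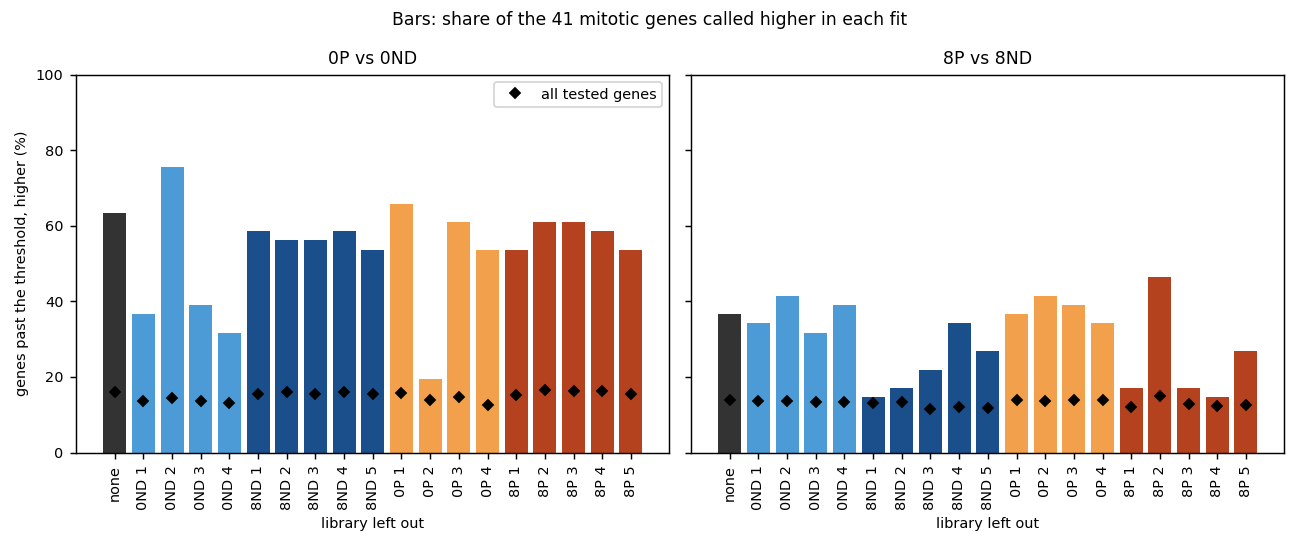
Share of the 41 mitotic genes (bars, percent) and of all tested genes (diamonds) called higher in 0P vs. 0ND (left) and 8P vs. 8ND (right) with all 18 libraries (none) and with each library left out in turn (x axis). The bars are shortest without 0P 2 on the left, where 8 genes were called, and without 8ND 1 or 8P 4 on the right, where 6 were called.

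Marker genes of other cell types moved with the same contrasts. B and plasma cell markers were lower in P for 5 of 12 (0 mg FA) and 7 of 12 (8 mg FA), with summed levels of 2602 to 5331 CPM in 0ND, 1069 to 1602 in 0P, 3618 to 10729 in 8ND and 488 to 3208 in 8P. Epithelium markers were lower for 6 and 9 of 12 and higher for 1 in each, and neutrophil markers were higher for 5 and lower for 1 of the 6 tested. Fibroblast and matrix markers were higher for 6 and lower for 3 of 12 in 0P vs. 0ND (median 0.52) and higher for 1 and lower for 3 in 8P vs. 8ND (median -0.06). Macrophage and dendritic cell markers were higher for 3 of 12 in 0P vs. 0ND (median 0.47) and for 0 in 8P vs. 8ND (median 0.30). Of 11 endothelium markers, 1 was higher and 2 were lower in 0P vs. 0ND and 4 were lower in 8P vs. 8ND, and of 11 T and NK cell markers 1 was higher and 1 lower at each dose. With the summed level of all non-epithelial markers as a covariate, 13 of the 41 genes were called in 0P vs. 0ND (median 0.55), as compared to 15.9% of all genes called higher. In 8P vs. 8ND 0 were called (median 0.34), and the share of all genes called higher also fell, to 4.54%. Without the covariate the medians were 0.59 and 0.38. The summed level used was 6177 to 9103 CPM in 0ND, 4362 to 5781 in 0P, 6980 to 14718 in 8ND and 3343 to 7013 in 8P. It thus differed between P and ND itself, so this fit cannot fully separate the covariate from the contrast. Scaled by epithelium markers in place of TMM, 32 and 34 were called and all 41 lay above 0 at both doses, but this scaling moved the median of all genes to 0.29 and 0.50 and the split of all calls to 4507 higher of 5908 and 7526 higher of 8479. The part of cell composition in the differences was not tested further.

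**Figure D4:**
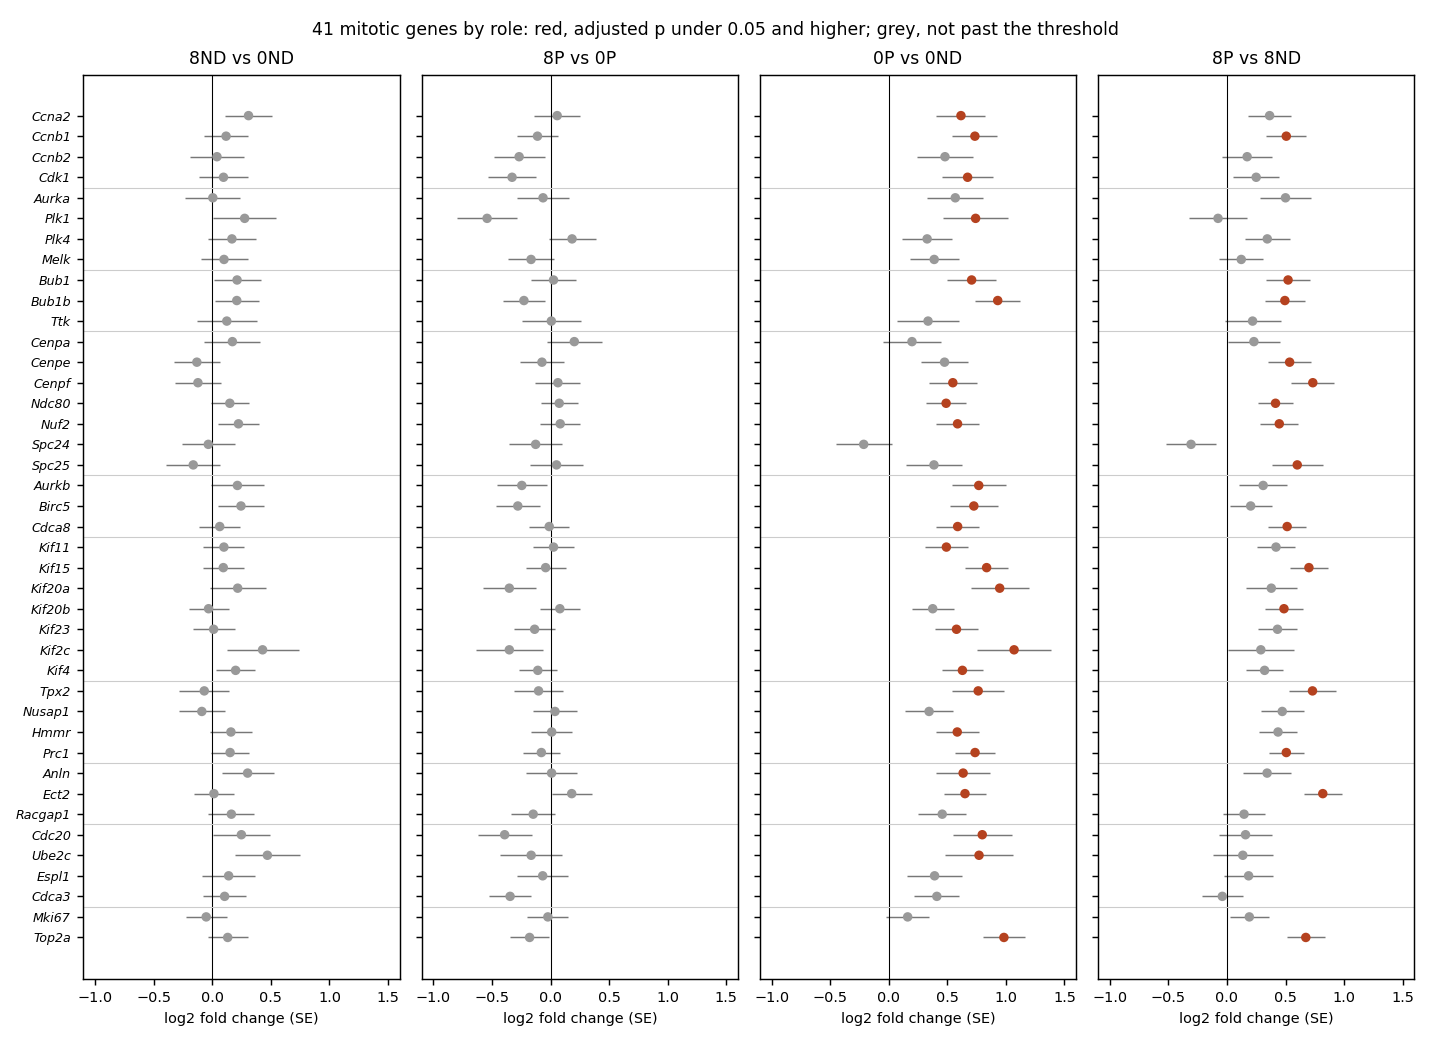
Log2 fold change (x axis, points) with its standard error (bars) for each of the 41 mitotic genes, grouped by role, in 4 comparisons. Genes past the adjusted p threshold are red: 26 in 0P vs. 0ND, 15 in 8P vs. 8ND and 0 in the comparisons of FA doses, 8ND vs. 0ND and 8P vs. 0P.

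Among the cyclins and *Cdk1*, which start mitosis, *Ccnb1* (cyclin B1, chr13:100778650-100786570, minus strand) was followed in every library. It stood at 10.1, 10.9, 11.0 and 8.12 CPM in 0ND and at 11.7, 24.9, 16.9 and 13.2 in 0P. In the 8 mg FA groups it stood at 10.1, 10.9, 10.3, 12.3 and 10.9 in 8ND and at 16.0, 14.6, 17.0, 15.5 and 14.1 in 8P. All P libraries lay above all ND libraries of the same dose. The log2 fold change was 0.74 ± 0.19 (SE, adjusted p = 0.00595) at 0 mg FA and 0.51 ± 0.17 (adjusted p = 0.0327) at 8 mg FA. *Ccna2* (cyclin A2) at 0.62 and *Cdk1* at 0.67 were also higher in 0P than in 0ND, whereas their values in 8P vs. 8ND, 0.36 and 0.25, did not pass. *Ccnb2* (cyclin B2) passed in neither, at 0.48 and 0.17. The annotation holds pseudogenes of *Ccnb1*, *Ccnb2* and *Kif4*, and reads that aligned to several places were set aside in the tables, so the counts of these 3 genes hold only the reads that could be placed.

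Of the mitotic and centriolar kinases, *Plk1* (Polo-like kinase 1, which acts from mitotic entry to cytokinesis, chr7:122159439-122169873, plus strand) had the lowest value in the test between the doses described further on. Its levels were 7.46, 15.9, 9.35 and 7.36 CPM in 0ND and 11.3, 25.5, 17.3 and 11.9 in 0P. They were 9.26, 12.3, 14.5, 13.6 and 10.2 in 8ND and 13.8, 12.7, 8.93, 8.72 and 12.4 in 8P. The highest library of each 0 mg FA group, 0ND 2 and 0P 2, stood well apart, and the groups overlapped at both doses. The log2 fold change was 0.74 ± 0.28 (adjusted p = 0.047) in 0P vs. 0ND, a call that was lost without 0P 2 (adjusted p = 0.238), and -0.08 ± 0.25 (adjusted p = 0.852) in 8P vs. 8ND. *Aurka* (Aurora A, which matures centrosomes) at 0.57 and 0.50, *Plk4* (which starts centriole duplication) at 0.33 and 0.34, and *Melk* at 0.39 and 0.12 passed at neither dose.

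In the spindle checkpoint, *Bub1b* (BubR1, part of the mitotic checkpoint complex, chr2:118598211-118641591, plus strand) was higher in P at both doses. The 0ND libraries held 21.03, 28.2, 22.3 and 15.8 CPM and the 0P libraries 29.8, 59.0, 37.3 and 39.4. The 8ND libraries held 20.5, 24.3, 28.2, 26.7 and 25.99 CPM and the 8P libraries 41.5, 29.4, 32.4, 39.4 and 34.0. No P library fell into the range of its ND group. The difference was a log2 fold change of 0.93 ± 0.19 (adjusted p = 0.00109) and 0.49 ± 0.17 (adjusted p = 0.0383). *Bub1*, the kinase that recruits the checkpoint to kinetochores, was also higher at both doses, by 0.71 and 0.52, while *Ttk* (Mps1, the kinase at the head of the checkpoint) did not pass, at 0.34 and 0.22.

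At the centromere and kinetochore, 2 of the 4 subunits of the Ndc80 complex, which binds microtubules, passed at both doses, and differences between the subunits were not tested. Of all genes, 15.9% were called higher in 0P vs. 0ND and 13.9% in 8P vs. 8ND. *Ndc80* (chr17:71496100-71526857, minus strand) was at 13.4, 15.2, 12.2 and 10.1 CPM in 0ND and at 16.6, 19.1, 15.8 and 19.5 in 0P, without overlap. It was at 13.7, 12.6, 15.2, 15.7 and 13.3 in 8ND and at 19.99, 14.2, 21.2, 23.1 and 15.03 in 8P, where 8P 2 and 8P 5 lay within the 8ND range. Its log2 fold change was 0.49 ± 0.17 (adjusted p = 0.0323) and 0.41 ± 0.15 (adjusted p = 0.0463). *Nuf2*, the partner of *Ndc80* at the microtubule end of the complex, was higher by 0.59 and 0.45. In 8P vs. 8ND the call of *Ndc80* held in 7 of the 18 fits that left out 1 library, and that of *Nuf2* in 8. *Spc25*, at the inner end, passed in 8P vs. 8ND alone (0.60, and 0.39 in 0P vs. 0ND). *Spc24*, which pairs with *Spc25*, was the only one of the 41 genes below 0 in 0P vs. 0ND, at -0.21 ± 0.24 (adjusted p = 0.542), and the lowest in 8P vs. 8ND, at -0.31 ± 0.21 (adjusted p = 0.309). Its libraries gave 7.52, 12.9, 8.53 and 6.06 CPM in 0ND, 8.19, 9.31, 6.86 and 5.47 in 0P, 8.85, 6.02, 9.87, 10.4 and 7.50 in 8ND, and 7.09, 8.17, 6.50, 7.11 and 5.29 in 8P. These ranges overlapped at both doses, and scaled by epithelium markers the *Spc24* value lay above 0. *Cenpf* was higher at both doses (0.55 and 0.73), the kinesin *Cenpe*, which moves chromosomes to the spindle equator, passed in 8P vs. 8ND alone (0.48 and 0.54), and *Cenpa*, the histone that marks centromeres, passed in neither (0.20 and 0.23).

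All 3 measured subunits of the chromosomal passenger complex, which corrects faulty attachments and steers cytokinesis, were higher in 0P than in 0ND, as compared to 15.9% of all genes. *Birc5* (survivin, chr11:117849251-117855743, plus strand) read 11.0, 19.0, 12.2 and 9.42 CPM in 0ND and 18.5, 26.2, 17.97 and 21.8 in 0P. It read 13.4, 15.7, 19.2, 14.4 and 12.8 in 8ND and 20.1, 16.7, 17.3, 19.5 and 13.5 in 8P. 0ND 2 lay within the 0P range, and the 8 mg FA groups overlapped widely. The log2 fold change was 0.73 ± 0.20 (adjusted p = 0.00945) at 0 mg FA and 0.20 ± 0.18 (adjusted p = 0.439) at 8 mg FA. *Aurkb*, the kinase of the complex, gave 0.77 (past the threshold) and 0.31 (not past), and *Cdca8* (borealin) passed at both doses, at 0.59 and 0.51.

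The kinesin motors were called in 6 of 7 genes in 0P vs. 0ND and in 2 of 7 in 8P vs. 8ND, as compared to 15.9% and 13.9% of all genes called higher. With so few genes in a role, the roles were not compared with each other. *Kif11* (Eg5, which pushes the spindle poles apart, chr19:37376403-37421859, plus strand) was measured at 34.3, 48.5, 33.3 and 27.7 CPM in 0ND and at 41.5, 67.8, 43.8 and 48.3 in 0P. In 8ND it was measured at 34.4, 33.3, 40.9, 39.5 and 43.8 and in 8P at 55.2, 37.1, 60.3, 53.8 and 49.7. The groups overlapped through 0ND 2 and 8P 2. Its log2 fold change was 0.49 ± 0.18 (adjusted p = 0.0458) and 0.42 ± 0.16 (adjusted p = 0.0615), and the first of these calls was lost without 0P 2 (adjusted p = 0.21). *Kif15*, a motor that can stand in for Eg5, was higher at both doses, by 0.84 ± 0.18 (adjusted p = 0.00167) and 0.70 ± 0.16 (adjusted p = 0.00337). *Kif2c* (MCAK, which depolymerizes microtubules) at 1.07, *Kif20a* (MKLP2) at 0.95, *Kif4* (a chromokinesin) at 0.63 and *Kif23* (MKLP1) at 0.58 were higher in 0P than in 0ND, with 0.29, 0.38, 0.32 and 0.43 in 8P vs. 8ND, none past the threshold. *Kif20b* passed in 8P vs. 8ND alone (0.38 and 0.49). *Kif20a* shares 29.3% of its exon bases with *Cdc23* on the opposite strand and *Kif4* shares 15.1% with *Pdzd11*, and since the sources do not say whether strand was used in counting, their values could include reads of these neighbours.

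Among the spindle microtubule proteins, *Tpx2*, which nucleates microtubules and activates Aurora A (chr2:152847964-152895321, plus strand), was higher at both doses. Its 0ND libraries gave 23.3, 43.4, 29.4 and 19.4 CPM and its 0P libraries 38.2, 68.4, 39.7 and 48.0. The 8ND libraries gave 23.1, 22.7, 32.4, 29.6 and 29.0 CPM and the 8P libraries 51.0, 34.5, 49.3, 47.1 and 44.4. At 8 mg FA the groups did not overlap, and at 0 mg FA only 0ND 2 reached into the 0P range. On the log2 scale the change was 0.76 ± 0.22 (adjusted p = 0.0122) and 0.73 ± 0.20 (adjusted p = 0.00936). *Prc1*, which bundles the central spindle, was higher by 0.74 ± 0.17 (adjusted p = 0.0022) and 0.51 ± 0.15 (adjusted p = 0.0155), without overlap at either dose, and shares 11.1% of its exon bases with *Rccd1* on the opposite strand. *Hmmr* was higher in 0P vs. 0ND alone (0.59 and 0.44), and *Nusap1* did not pass (0.34 and 0.47).

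In cytokinesis, *Ect2*, the exchange factor that activates RhoA at the cleavage furrow, had the highest log2 fold change of the 41 genes in 8P vs. 8ND. Its levels were 25.6, 32.6, 28.7 and 26.9 CPM in 0ND and 41.5, 60.1, 38.7 and 37.6 in 0P. They were 29.6, 26.5, 26.8, 32.8 and 27.8 in 8ND and 51.5, 33.1, 65.8, 57.1 and 44.4 in 8P. Neither dose showed overlap, although 8P 2 exceeded the highest 8ND library only slightly. The log2 fold change was 0.65 ± 0.18 (adjusted p = 0.00926) and 0.82 ± 0.16 (adjusted p = 0.000929). *Anln* (anillin, a scaffold of the contractile ring, chr9:22332012-22389188, minus strand) was at 24.6, 37.2, 24.6 and 18.1 CPM in 0ND, 32.1, 58.4, 36.6 and 34.1 in 0P, 25.6, 31.1, 30.6, 47.8 and 26.4 in 8ND and 42.3, 31.7, 47.1, 38.3 and 43.4 in 8P. 0ND 2 and 8ND 4 were the high libraries among the ND groups and gave the overlap. *Anln* passed in 0P vs. 0ND (0.63 ± 0.23, adjusted p = 0.0411, and adjusted p = 0.199 without 0P 2) and not in 8P vs. 8ND (0.34 ± 0.21, adjusted p = 0.23). *Racgap1*, a partner of *Kif23* in the centralspindlin complex, passed in neither (0.46 and 0.15).

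Of the genes of anaphase and mitotic exit, *Cdc20*, the activator of the anaphase-promoting complex that the checkpoint inhibits (chr4:118432901-118437352, minus strand), was at 5.23, 10.4, 4.03 and 7.58 CPM in 0ND and at 9.77, 16.2, 10.8 and 9.77 in 0P. It was at 7.19, 7.69, 10.3, 6.67 and 7.70 in 8ND and at 8.17, 10.7, 7.88, 9.78 and 7.98 in 8P. 0ND 2 lay above the 2 lowest 0P libraries, and the 8 mg FA groups overlapped over most of their range. *Cdc20* gave a log2 fold change of 0.80 ± 0.25 (adjusted p = 0.019, and 0.0927 without 0P 2) and 0.16 ± 0.22 (adjusted p = 0.641). *Ube2c*, the ubiquitin-conjugating enzyme of the complex, passed in 0P vs. 0ND at 0.77, was at 0.14 in 8P vs. 8ND, and shares 22.8% of its exon bases with *Tnnc2* on the opposite strand. *Espl1* (0.39 and 0.18) and *Cdca3*, which targets Wee1 for degradation (0.41 and -0.04), passed at neither dose, so that 0 of these 4 genes were called in 8P vs. 8ND, with 0 at an unadjusted p under 0.05. Of all genes, 13.9% were called higher there and 38.6% had an unadjusted p under 0.05, so 4 genes are too few to set this role apart.

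Of the pair of proliferation markers with the highest levels, *Top2a* passed in both comparisons of P with ND and *Mki67* in neither. *Top2a* (chr11:98992943-99024189, minus strand) stood at 120.1, 187, 132 and 94.2 CPM in 0ND and at 208, 317, 232 and 295 in 0P. It stood at 130.2, 129.6, 165, 145 and 159 in 8ND and at 268, 182, 228, 265 and 218 in 8P. No P library lay within the ND range of its dose. The log2 fold change was 0.98 ± 0.18 (adjusted p = 0.000357), the smallest p of the 41 genes in that comparison, and 0.67 ± 0.16 (adjusted p = 0.00388). *Mki67* (chr7:135689784-135716361, minus strand) stood at 347, 567, 361 and 289 CPM in 0ND and at 437, 589, 376 and 346 in 0P. It stood at 326, 347, 449.8, 379 and 384 in 8ND and at 478, 369, 488, 422 and 394 in 8P. These groups overlapped, and the log2 fold change of 0.16 ± 0.18 (adjusted p = 0.555) and 0.19 ± 0.17 (adjusted p = 0.426) lay close to its standard error at both doses. The difference between *Top2a* and *Mki67* was not tested.

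**Figure D5:**
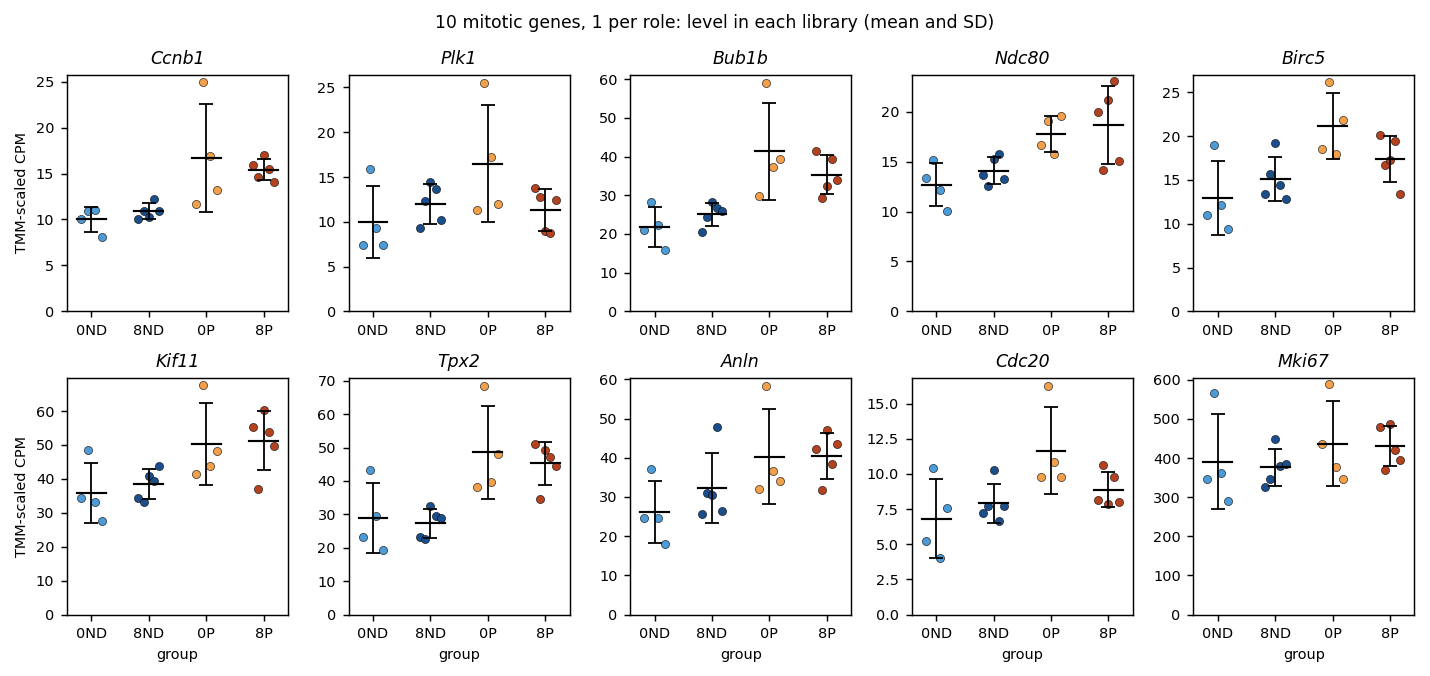
TMM-scaled CPM (y axis, from 0) of 10 mitotic genes, 1 for each role, in every library (points) by group, with the mean and SD (bars). The point that stands apart at the top of 0P in most panels is 0P 2 (25.5 CPM for Plk1, 59.0 for Bub1b), and *Mki67* alone of the 10 genes passed in neither comparison of P with ND.

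The FA dose was compared within each tissue. In 8ND vs. 0ND, 0 of the 41 genes passed (edgeR, lowest adjusted p = 0.636) and 0 had an unadjusted p under 0.05, as compared to 10 of all 20787 genes past the threshold by edgeR (0.0481%, with 0.0289% higher and 0.0192% lower) and 9.91% at an unadjusted p under 0.05. By DESeq2 0 of the 41 passed, as compared to 316 of all genes, and by limma-voom 0, as compared to 4. Of the 41, 33 lay above 0 (50.6% of all genes) with a median log2 fold change of 0.13, which was 0.27 without 0ND 2 and 0.03 without 0ND 4. The highest were *Ube2c* (0.47 ± 0.28), *Kif2c* (0.43 ± 0.31) and *Ccna2* (0.31 ± 0.20), and the lowest *Spc25* (-0.16 ± 0.23), *Cenpe* (-0.13 ± 0.19) and *Cenpf* (-0.12 ± 0.19). For none of the 41 did the libraries of the groups separate, which occurred in 2.15% of all genes with 8ND higher and 1.8% with 8ND lower.

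In 8P vs. 0P, 0 of 41 passed (edgeR, lowest adjusted p = 0.489) and 1 had an unadjusted p under 0.05 (*Plk1*), as compared to 0 of all genes past the threshold by edgeR and 10.1% at an unadjusted p under 0.05. DESeq2 called 0 of the 41 and 20 of all genes, and limma-voom 0 of either. The median was -0.07, and 15 lay above 0 (50.7% of all genes). This direction rested on 0P 2: without it the median was 0.14. Scaled by epithelium markers the median was 0.25, but that scaling also moved the median of all genes, to 0.34. *Plk1* (-0.54 ± 0.26), *Cdc20* (-0.39 ± 0.23) and *Kif20a* (-0.35 ± 0.23) were lowest, and *Cenpa* (0.20 ± 0.24), *Plk4* (0.18 ± 0.20) and *Ect2* (0.18 ± 0.17) highest. Again the libraries of the groups separated for 0 of the 41, as compared to 1.36% of all genes with 8P higher and 0.89% with 8P lower.

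The interaction, which asks whether the difference between P and ND was larger at 8 mg FA than at 0 mg FA, passed for 0 of 41 genes by edgeR, with 1 at an unadjusted p under 0.05 (*Plk1*), as compared to 0 of all genes and 10.4% of them at an unadjusted p under 0.05. DESeq2 called 0 of the 41 and 82 of all genes, and limma-voom 0 of either. The median was -0.19 (0.01 without 0P 2), with 9 genes above 0 (48.8% of all genes). The lowest were *Plk1* at -0.82 ± 0.37 (adjusted p = 0.462), *Kif2c* at -0.78 ± 0.42 and *Cdc20* at -0.64 ± 0.33. Toward the other end stood *Spc25* at 0.21 ± 0.32, *Cenpf* at 0.19 ± 0.27 and *Ect2* at 0.17 ± 0.24. The standard errors of the interaction lay between 0.22 and 0.42 over the 41 genes, as compared to median P vs. ND changes of 0.59 and 0.38. A difference between doses of about that size could therefore have been missed, and the power to find it was not calculated.

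Further genes of mitosis, 103 in 6 textbook lists, were all tested, against the same shares of all genes called higher as above (15.9% in 0P vs. 0ND and 13.9% in 8P vs. 8ND). In 0P vs. 0ND 29 were higher and 1 lower, with a median of 0.38, and in 8P vs. 8ND 21 were higher and 0 lower, with a median of 0.29. The single lists are short, and several of their counts, such as 3 of 12, 2 of 8 or 6 of 31, differ from those shares by only a few genes. The lower gene was *Lin52* of the MuvB complex (-0.56 ± 0.19, adjusted p = 0.031). *Cks1b*, which binds Cdk1, was higher by 1.31 ± 0.22 (adjusted p = 0.000163) and 0.79 ± 0.20 (adjusted p = 0.00508), and *Gtse1* by 1.32 and 0.85. In the kinetochore list, called in 9 and 6 of 31 genes, the checkpoint gene *Mad2l1* was higher by 0.93 ± 0.16 (adjusted p = 0.000248) and 0.80 ± 0.15 (adjusted p = 0.000463). *Smc2*, a core subunit of condensin, was higher by 0.82 and 0.68 in a list called in 4 and 3 of 11 genes. Of the anaphase-promoting complex, 3 of 12 genes were called at each dose, *Anapc4* (0.74 and 0.63) and *Cdc16* (0.38 and 0.36) at both. The spindle list was called in 6 and 4 of 19 genes and *Kntc1*, which brings dynein to kinetochores, was higher by 0.69 and 0.50. The cytokinesis list was called in 2 of 8 genes at each dose, including *Cep55*, which recruits the abscission machinery (1.02 and 0.50).

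The 40 G1/S genes, which act in DNA replication before mitosis, were called higher in 19 and lower in 0 in 0P vs. 0ND (median 0.56), and higher in 9 and lower in 1 in 8P vs. 8ND (median 0.27), as compared to 15.9% and 13.9% of all genes called higher. *Mcm7* of the replicative helicase was higher at both doses (0.96 ± 0.17, adjusted p = 0.000251, and 0.57 ± 0.15, adjusted p = 0.00779). *Tk1*, the thymidine kinase, was the gene called lower in 8P vs. 8ND, at -0.71 ± 0.16 (adjusted p = 0.00296). None of these 103 and 40 genes passed in a comparison of FA doses by edgeR, with 5 and 1 at an unadjusted p under 0.05 in 8ND vs. 0ND and 3 and 7 in 8P vs. 0P. The interaction likewise passed for 0 of them, with 3 and 7 at an unadjusted p under 0.05, as compared to 9.91%, 10.1% and 10.4% of all genes in these comparisons. The summed level of the 41 mitotic genes divided by that of the G1/S genes was 1.84 ± 0.30 (SD) in 0ND, 1.86 ± 0.25 in 0P, 1.83 ± 0.22 in 8ND and 2.10 ± 0.35 in 8P, and these ranges overlapped.

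Across the 18 libraries the 41 genes moved together. The median Pearson correlation over their 820 pairs was 0.74 on log2 CPM, and 0.65 after the mean of each group was taken off, given as a description since the genes share each library's depth and composition. On log2 CPM *Spc24* correlated least with the others (median 0.07), followed by *Cdca3* (0.45) and *Cenpa* (0.52). With the group means taken off, *Spc24* was at 0.485, and *Cdc20* (0.356), *Cdca3* (0.429) and *Kif2c* (0.482) lay lower. The 41 genes lie on 16 chromosomes.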

How the data were processed

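RNA was extracted from formalin-fixed, LMD colonic epithelium, and stranded libraries were made from 40 ng total RNA. The authors aligned the reads to mm10 with Bowtie and counted them per gene with HTSeq (on RefSeq genes, per the study's methods), and they deposited raw counts per gene name for each of the 18 libraries. Versions and the strand setting of the counting were not stated in the labels or the paper. Summary lines were left out: reads outside features made up 22.0 to 40.7% of a table, reads placed in several ways 40.1 to 62.2% and ambiguous reads 0.22 to 0.384%. The tables hold no coordinates, and those given are from GENCODE M21 (GRCm38).

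Groups were taken from the labels. Genes were filtered with filterByExpr (minimum count 10), scaled by TMM and fitted in 1 model with a mean for each of the 4 groups (edgeR 4.0.16 in R 4.3.3, robust quasi-likelihood test, Benjamini-Hochberg over 20787 genes, threshold 0.05). Standard errors were obtained from each log2 fold change and the root of its F statistic. Levels are TMM-scaled CPM. The script was tested on simulated data. Alternatives were DESeq2 1.42.0, limma 3.58.1 voom, DESeq2 size factors, scaling by epithelium markers, no filter, the compared groups alone, a replicate block, a composition covariate and leaving out libraries.

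The 41 genes, the other lists and the alternatives were chosen with earlier results of these data known. Named genes were 10 fixed members, 1 per role, the 3 highest and 3 lowest log2 fold changes, the 6 smallest p where over 10 passed, and up to 3 smallest p of each other list. *Top2a*, *Spc24* and *Ect2* were given in every library after their values were seen. No replicate pair of a group was a repeated library (lowest chi-square per gene 9.29 over 32 pairs).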

Additional observations from a re-analysis of the deposited data

Results flagged for a closer look

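Within a group, the highest or the lowest library stood far from the others by Dixon's criterion at the 95% level in 22 of the 228 combinations of group and value looked at, 15 of them for single genes and 7 for summed levels. Chance flags about 1 in 20 groups, and the 41 genes are correlated across libraries, so these are not separate events. Values are TMM-scaled CPM.

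0P 2 was flagged most often, each time as the high library, with 6 of the 15 flags of single genes. It stood at 2623 for the sum of the 41 genes (next highest 1792), at 1716 for that sum without *Top2a* and *Mki67*, at 906 for *Mki67* and *Top2a* together, at 389 for the kinesin motors and at 157 for the cytokinesis genes. Among single genes it stood at 69.5 for *Ccna2*, 16.2 for *Ccnb2*, 21.1 for *Spc25*, 60.1 for *Ect2*, 38.8 for *Racgap1* and 16.2 for *Cdc20*.

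0ND 2 was high for *Ccnb2* (13.4), *Kif20a* (20.6), *Ube2c* (15.5) and the summed anaphase and exit genes (57.3), and this library also had the highest summed smooth muscle markers, at 3333. 8P 2 was low for *Spc25* (8.60) and *Kif20b* (37.8) and high for *Espl1* (19.6). 8ND 1 was low for *Espl1* (9.96) and the summed spindle checkpoint genes (40.9). 8ND 4 was high for *Anln* (47.8) and 8ND 3 for *Cdc20* (10.3). What set these libraries apart was not tested.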

How the results depend on the processing

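The counts of the 41 genes called were 26 in 0P vs. 0ND and 15 in 8P vs. 8ND. They moved by over 1.5 times under the fit of the 2 groups alone (16 in 0P vs. 0ND), the non-epithelial marker covariate (13 in 0P vs. 0ND and 0 in 8P vs. 8ND), scaling by epithelium markers (34 in 8P vs. 8ND) and without 8ND 1 and 8ND 2 together (4 in 8P vs. 8ND). The share of all genes called higher was 15.8% for the 2 groups alone (0P vs. 0ND) and 36.2% when scaled by epithelium markers (8P vs. 8ND). Leaving out 1 library gave 8 (without 0P 2) to 31 (without 0ND 2) in 0P vs. 0ND and 6 (without 8ND 1 or 8P 4) to 19 (without 8P 2) in 8P vs. 8ND. In the same order, the share of all genes called higher in these fits was 13.9%, 14.5%, 13.1%, 12.2% and 15%. The cause of these shifts in the counts was not tested beyond the smaller number of libraries. The other alternatives gave 22 to 32 and 15 to 17 calls, DESeq2 26 and 17 and limma-voom 27 and 15. The share of all genes called higher was 17.6% and 15.7% by DESeq2 and 15.9% and 13.1% by limma-voom. For the highest count, 32 in 0P vs. 0ND when scaled by epithelium markers, it was 21.7%. Of the calls, 8 of 26 and 6 of 15 held in all 18 fits without 1 library, and 10 and 0 held in all 9 other alternatives. The comparisons of FA doses and the interaction gave 0 calls under every alternative run. The fit of the 2 groups alone could not be made for the interaction.

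Replicate numbers are shared between groups, but the labels do not say that a number marks a mouse. Deviations of same-numbered libraries correlated at 0.03 to 0.20 between 0ND and 0P (3 of 4 best with their own number) and at -0.08 to 0.27 between 8ND and 8P (2 of 5), so the numbers do not establish pairs. With the replicate block, 29 and 16 genes were called in 0P vs. 0ND and 8P vs. 8ND, and 0 in the comparisons of doses and in the interaction.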
